A study of Mus musculus with 12 samples.

Results

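Hypoxia-inducible factors (HIFs) pair an oxygen-labile alpha subunit with a stable beta subunit, and the 10 genes described here are 3 of these subunits, 2 of the prolyl hydroxylases that sense oxygen, and 5 targets outside glycolysis. They were chosen by name as Hif1a, Epas1, Arnt, Egln1, Egln3, Bnip3, Ankrd37, Ndrg1, Adm and P4ha1, which are 10 of the 38887 genes quantified in each library. All 10 matched 1 gene each, and 9 of them had enough reads to be tested. RNA-Seq was carried out on bone marrow-derived macrophages (BMMs), which are precursors from mouse marrow grown into macrophages with M-CSF for 6 days. IGF2BP2 KO mice carried loxP sites around exons 4 and 5 of Igf2bp2, an mRNA-binding protein gene, together with Cre expressed from the myeloid Lyz2 locus, and wild-type (WT) littermates had no floxed allele and were either Cre positive or Cre negative. BMMs of both genotypes were left untreated (M0) or received IL-4 at 20 ng/ml for 8 h (M2), with 3 libraries in each of the 4 groups. All cells were kept in M-CSF, and neither the labels nor the methods name an experiment under low oxygen among these libraries.

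In cells with enough oxygen, EGLN prolyl hydroxylases mark HIF alpha proteins for recognition by VHL and degradation, while in hypoxia the alpha subunits persist, join ARNT and switch on target genes through short DNA elements. HIF activity is therefore set largely at the protein level, which RNA-Seq does not measure, and several targets, Egln3 among them, feed back on the pathway. In macrophages HIF-1 is best known for driving glycolysis and inflammatory genes, and the alpha subunit encoded by Epas1 (HIF-2 alpha) is often discussed in connection with IL-4 and arginase. In bulk RNA, fewer cells of a type and less RNA per cell cannot be told apart.

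Library totals were between 20011792 and 39632770 expected counts, with WT M2 the shallowest group at 20011792 to 22744704. Macrophage markers summed to 4230 to 5560 CPM (counts scaled to the library total by TMM factors) in all libraries, T cell markers were at 0, and B cell markers reached at most 0.0909 CPM. Markers of fibroblasts and stroma ran lower in KO, with sums of 8.35 to 30.9 CPM beside 30.3 to 54.6 CPM for the WT libraries in M0, and of 9.21 to 26.9 CPM beside 33.1 to 60.5 CPM in M2. All 5 of these genes were detected in every library, led by the collagen gene Col1a1 with 3.18 to 14.1 CPM in KO M0 and 15.2 to 26.7 CPM in WT M0, whereas Dcn reached at most 0.681 CPM. The proliferation markers Mki67 and Top2a summed to 1110 to 1290 CPM in M0 and to 425 to 737 CPM in M2. The endothelial markers Pecam1 and Cdh5 together had 2.38 to 3.91 CPM in M0 and 35.2 to 50.1 CPM in M2, a rise carried by Pecam1, since Cdh5 had 1.27 to 1.94 CPM in M0 and 0.452 to 0.954 CPM in M2. The dendritic cell markers Flt3 and Zbtb46 together had 0.194 to 0.404 CPM in M0 and 1.45 to 2.11 CPM in M2, a rise carried by Zbtb46, since Flt3 reached at most 0.153 CPM. Neutrophil markers summed to 3.0 to 3.07 CPM in KO M0 and to 4.01 to 8.9 CPM in WT M0, with Ly6g at 0 in all libraries. The part of these shifts in the results below was not tested. Igf2bp2, counted over the whole gene including exons that remain after recombination, stood at 98.0 ± 20.7 CPM in WT M0 and 90.8 ± 5.53 CPM in KO M0 (mean ± SD, n = 3), a log2 difference of -0.11 (SE 0.13, edgeR adjusted p = 0.656). In M2 it stood at 211 ± 28.7 CPM in WT and 135 ± 9.54 CPM in KO and was called lower in KO (log2 -0.65, SE 0.13, edgeR adjusted p = 0.0285). Because the remaining exons are counted, these values are no direct check of the deletion. Lyz2, the gene into which Cre was inserted, fell from 8460 CPM in WT M0 to 26.8 CPM in KO M0, and effects of lost Lyz2 and of recombined Igf2bp2 therefore cannot be told apart between these genotypes. The related gene Igf2bp3 was also called lower in KO, by a log2 difference of -2.16 in M0 and -2.01 in M2 (edgeR adjusted p = 1.18e-05 and 2.13e-05). Its part in the results below was not tested. The libraries of WT mouse 3 stood apart from the other WT libraries, with a chi-square of the counts per gene of 41.9 and 25.3 in M0 and of 22.3 and 18.3 in M2, where the other pairs of WT libraries gave 9.02 and 6.07. KO M2 replicate 1 stood apart likewise, at 21.1 and 15.8 beside 5.15. Results are given without these libraries where a member's call changes.

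The members spanned a wide range of levels when compared as TPM, the share of all transcripts after allowing for gene length. In WT M0, Hif1a was highest at 76.9 ± 2.95 TPM, followed by P4ha1 at 66.9 ± 5.11 TPM and Bnip3 at 36.9 ± 2.86 TPM. Below them stood Egln1 at 29.8 TPM, Arnt at 22.1 TPM, Ndrg1 at 15.7 TPM, Ankrd37 at 13.0 TPM, Egln3 at 5.75 TPM and Epas1 at 2.68 TPM. Only Ndrg1 and Ankrd37 were neighbours whose libraries overlapped in that order. In KO M0, P4ha1 at 89.3 ± 6.94 TPM stood above Hif1a at 70.2 ± 2.01 TPM, and none of the neighbouring genes overlapped. In both M2 groups P4ha1 also led, with 67.3 TPM in WT and 62.8 TPM in KO, and Hif1a was second with 46.4 and 42.7 TPM. Epas1 and Egln3 overlapped at the low end in both M2 groups, as did Egln1 with Bnip3 and Ankrd37 with Ndrg1 in WT M2, and Arnt with Egln1 in KO M2. Adm, which encodes the vasodilator peptide adrenomedullin, was barely detected, with 18 expected counts over all 12 libraries and at most 0.409 CPM in any of them, and it was not tested.

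**Figure D1:**
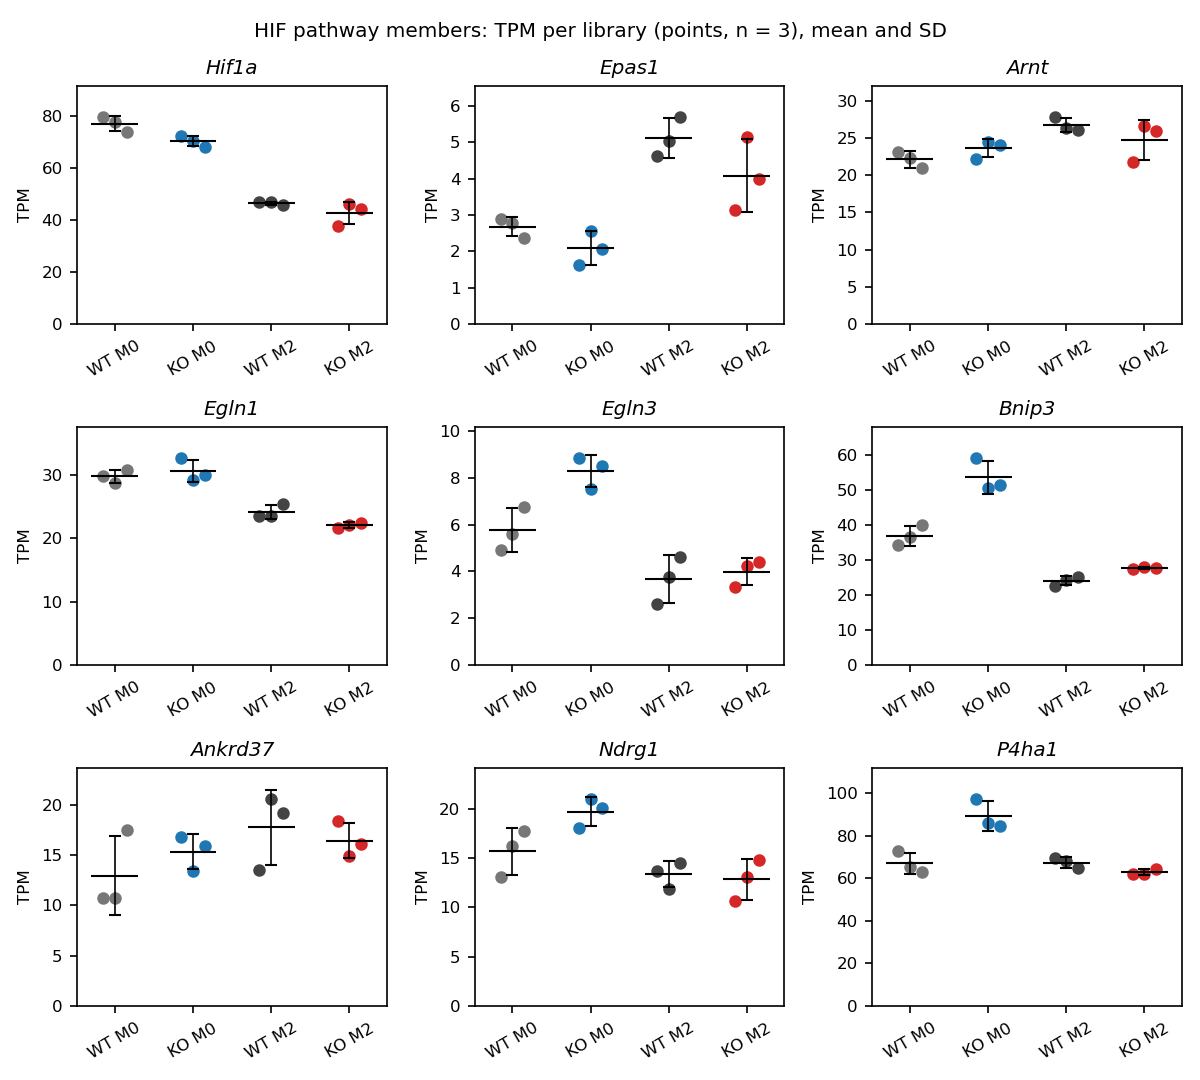
TPM of 9 members in the 12 libraries, 1 panel per gene with its own axis from 0. Points are libraries, horizontal lines are group means and bars are SD (n = 3). Hif1a stands at 73.7 to 79.5 TPM in WT M0 and at 45.8 to 46.8 TPM in WT M2, and Bnip3 is highest in KO M0 at 50.5 to 59.1 TPM.

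The alpha subunit genes moved in opposite directions under IL-4, in WT as well as in KO macrophages. Hif1a (chromosome 12, 73901375 to 73947530 on the plus strand of GRCm38) had 190, 193 and 193 CPM in the WT M0 libraries and 119, 122 and 119 CPM in WT M2. In KO it had 178, 175 and 171 CPM in M0 and 104, 118 and 115 CPM in M2. Every M2 library was below every M0 library. With IL-4, Hif1a fell by 0.68 on the log2 scale in WT (SE 0.05, adjusted p = 1.1e-07, edgeR quasi-likelihood test) and by 0.63 in KO (SE 0.05, adjusted p = 1.75e-07), which is 1.6-fold and 1.55-fold lower. The responses of the genotypes differed by a log2 of 0.04 with an SE of 0.07 (edgeR adjusted p = 0.78).

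Epas1 (chromosome 17, 86753700 to 86833410, plus strand) went up where Hif1a went down, at a far lower level. It had 8.12, 7.98 and 7.21 CPM in WT M0 and 14.0, 15.3 and 17.2 CPM in WT M2. In KO it had 4.7, 7.48 and 6.06 CPM in M0 and 10.0, 15.4 and 12.1 CPM in M2. Again M0 and M2 libraries of a genotype did not overlap, whereas WT and KO libraries did. IL-4 raised Epas1 by a log2 of 0.99 in WT (SE 0.17, edgeR adjusted p = 0.000364) and by 1.04 in KO (SE 0.17, edgeR adjusted p = 0.000216), 1.99-fold and 2.05-fold. As a share of Hif1a TPM, Epas1 amounted to 3.23 to 3.62% in WT M0 and rose to 9.9 to 12.5% with IL-4. In KO the share was 2.26 to 3.64% in M0 and 8.28 to 11.2% in M2. Hif1a transcripts remained in excess in every library, by 8.03 to 44.2 times.

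Arnt (chromosome 3, 95434388 to 95497240, plus strand), the beta subunit that both alpha subunits need, changed less. It measured 45.2, 43.8 and 43.6 CPM in WT M0 and 56.7, 55.4 and 52.1 CPM in WT M2. In KO M0 it measured 44.6, 49.0 and 46.8 CPM, and in KO M2 50.7, 55.3 and 54.7 CPM. The M2 libraries were the higher ones in both genotypes, and the increase with IL-4 was a log2 of 0.31 in WT (SE 0.05, edgeR adjusted p = 0.000432) and 0.19 in KO (SE 0.05, edgeR adjusted p = 0.00798). The KO call was lost with limma on log2(TPM + 1), where the increase was 0.06 (adjusted p = 0.55), and on log2(TPM + 0.1), where it was 0.07 (adjusted p = 0.548). The ratio of Hif1a and Epas1 TPM together to Arnt TPM was 3.56 to 3.64 in the untreated WT libraries and 1.85 to 1.97 after IL-4. The untreated KO libraries had ratios of 2.92 to 3.33, below those of WT, and reached 1.85 to 1.93 after IL-4. This difference in M0 was not tested, and 31.1% of all genes tested did not overlap between the genotypes there. Hif1a, Epas1 and Arnt were not called in M0 with edgeR (adjusted p = 0.0841, 0.246 and 0.364).

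Of the oxygen sensors, Egln1 (chromosome 8, 124908587 to 124949324, minus strand), which encodes the main HIF prolyl hydroxylase PHD2, was lower with IL-4. Its libraries held 55.1, 54.0 and 61.1 CPM in WT M0 and 46.7, 46.9 and 50.4 CPM in WT M2, and 61.8, 56.1 and 57.7 CPM in KO M0 and 45.4, 43.7 and 45.0 CPM in KO M2. M0 and M2 did not overlap. Egln1 fell by 0.24 in WT (SE 0.06, edgeR adjusted p = 0.00428) and by 0.39 in KO (SE 0.06, edgeR adjusted p = 9.87e-05) on the log2 scale, and the difference of -0.15 between these responses did not pass the test (edgeR adjusted p = 0.389).

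Egln3 (chromosome 12, 54178981 to 54203860, minus strand), encoding PHD3, is itself a HIF target. WT M0 libraries had 6.82, 7.89 and 10.1 CPM and WT M2 libraries 3.86, 5.62 and 6.9 CPM, with a small overlap between them. KO M0 libraries had 12.6, 10.8 and 12.3 CPM and KO M2 libraries 5.27, 6.26 and 6.62 CPM, without overlap. IL-4 lowered Egln3 1.95-fold in KO (log2 -0.97, SE 0.18, edgeR adjusted p = 0.000516) and 1.52-fold in WT (log2 -0.6, SE 0.19, edgeR adjusted p = 0.0201). The WT call did not hold without M0 replicate 3 (edgeR adjusted p = 0.0755), without M2 replicate 1 (edgeR adjusted p = 0.0878) or with only the 6 compared libraries in the fit (edgeR adjusted p = 0.0601).

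Among the targets, Bnip3 and P4ha1 were the members that passed the test between the genotypes, and they did so in M0. Bnip3 (chromosome 7, 138890836 to 138909519, minus strand) encodes a mitochondrial outer membrane protein that promotes mitophagy. It had 29.7, 31.9 and 35.9 CPM in WT M0 and 53.6, 46.6 and 47.9 CPM in KO M0, so that the lowest KO library lay above the highest WT library. The increase in KO was 1.52-fold (log2 0.60, SE 0.08, edgeR adjusted p = 0.000681). In M2 the groups came closer, with 21.5, 23.7 and 24.4 CPM for the WT libraries and 27.2, 26.3 and 26.1 CPM for those of KO, still without overlap but with a log2 difference of 0.20 that did not pass the test (SE 0.08, edgeR adjusted p = 0.2). Part of the Bnip3 reads is shared with another gene, since its expected counts were fractional in 7 of 12 libraries.

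P4ha1 (chromosome 10, 59323296 to 59373304, plus strand) encodes a catalytic subunit of the prolyl hydroxylase that stabilises collagen. WT M0 libraries held 112, 98.8 and 99.9 CPM and KO M0 libraries 150, 136 and 133 CPM, which was 1.35-fold more (log2 0.43, SE 0.06, edgeR adjusted p = 0.00143). In M2 the libraries overlapped at 111, 111 and 105 CPM for WT and 105, 101 and 106 CPM for KO (log2 -0.07, SE 0.06, edgeR adjusted p = 0.563). Fibroblasts also express P4ha1. The stromal markers given above were lower in KO M0, the opposite direction to P4ha1, and their part in this difference was not tested.

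Over all 12846 genes tested, 9.78% were called between KO and WT in M0 (5.5% higher and 4.27% lower in KO) and 2.68% in M2 (1.21% higher and 1.46% lower), and the members' counts are read against these shares. In M0, 2 of the 9 tested members were called, both higher in KO, and their median log2 difference was 0.21 beside -0.001 for all genes. In M2, 0 of 9 were called with edgeR and 0 with DESeq2 or limma. Of the 2611 genes with an unadjusted p under 0.05 in M2, Bnip3 was the member among them. Groups did not overlap for 4 of 9 members in M0, namely Hif1a, Egln3, Bnip3 and P4ha1, where 31.1% of all genes did not overlap, and for 3 of 9 in M2, where it was 24.8%. Egln3 in M0 was 1.44-fold higher in KO and missed the threshold (log2 0.53, SE 0.18, edgeR adjusted p = 0.0788), as did Hif1a, which was lower by a log2 difference of -0.14 (SE 0.05, edgeR adjusted p = 0.0841). DESeq2 called 4 members, with Egln3 higher (adjusted p = 0.0403) and Hif1a lower (adjusted p = 0.0441) in addition to Bnip3 and P4ha1. Without WT M0 replicate 3, 4 members were called in M0 in place of 2, since Egln3 (log2 0.70, adjusted p = 0.026) and Ndrg1 (log2 0.37, adjusted p = 0.0454) passed as well, and both also passed without WT mouse 3 (adjusted p = 0.00984 and 0.0469). Egln3 passed with no filter on low counts too (adjusted p = 0.0448). Bnip3 and P4ha1 were called under every alternative that was run.

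**Figure D2:**
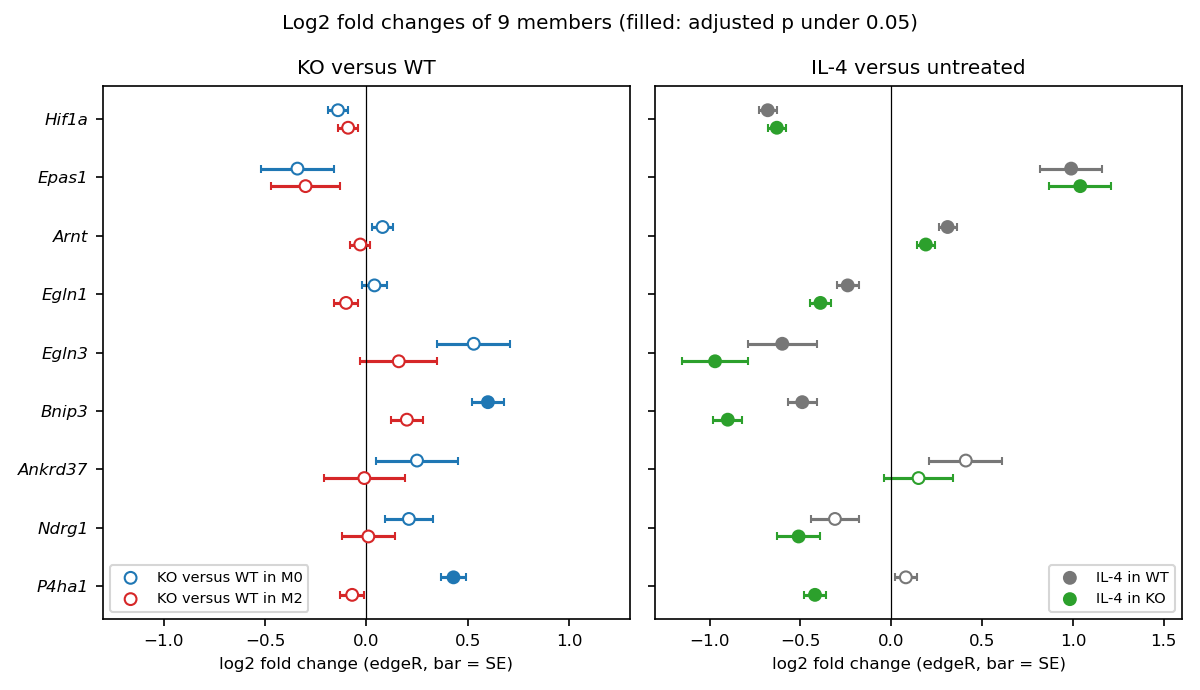
Log2 fold changes of 9 members from edgeR, with SE as bars, for KO versus WT (left, M0 blue and M2 red) and for IL-4 versus untreated (right, WT grey and KO green). Filled points have an adjusted p under 0.05. Bnip3 at 0.60 and P4ha1 at 0.43 are the filled points for KO versus WT in M0, and none is filled in M2.

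The start regions of these targets were inspected for the core letters that HIF dimers bind. The 250 bases upstream of the RefSeq start (GRCm38.p6) were searched on both strands for ACGTG and GCGTG, and are shown for the 3 members with the largest M0 differences, Bnip3 (chr7:138909507-138909756, minus strand), P4ha1 (chr10:59323046-59323295, plus strand) and Egln3 (chr12:54203875-54204124, minus strand). Each is written from 5′ to 3′ along its gene with the matches in capitals, which read CACGT or CACGC where the match is on the opposite strand.
Bnip3: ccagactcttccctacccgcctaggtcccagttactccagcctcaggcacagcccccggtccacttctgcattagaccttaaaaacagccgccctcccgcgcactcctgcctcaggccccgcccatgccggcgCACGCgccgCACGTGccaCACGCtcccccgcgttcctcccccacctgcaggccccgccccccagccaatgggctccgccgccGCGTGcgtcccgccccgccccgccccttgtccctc
P4ha1: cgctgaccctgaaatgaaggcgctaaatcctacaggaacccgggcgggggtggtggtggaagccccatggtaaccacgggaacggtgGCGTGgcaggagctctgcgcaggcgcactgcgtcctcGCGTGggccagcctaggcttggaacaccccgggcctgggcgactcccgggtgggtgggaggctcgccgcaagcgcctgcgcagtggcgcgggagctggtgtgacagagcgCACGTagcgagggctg
Egln3: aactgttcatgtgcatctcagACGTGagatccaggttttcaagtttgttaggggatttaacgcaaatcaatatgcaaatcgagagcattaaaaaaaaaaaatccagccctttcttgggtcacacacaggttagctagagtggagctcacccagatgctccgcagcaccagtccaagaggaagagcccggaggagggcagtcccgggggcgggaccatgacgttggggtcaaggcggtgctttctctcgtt
Bnip3 had 5 matches, 2 of which are the strands of one palindromic CACGTG, a sequence that is also an E-box. P4ha1 had 3 matches and Egln3 1, at -229 to -225 from the start. All 8 members with a listed promoter (Epas1 and Ndrg1 had no entry) held at least 1 match, including Hif1a, Arnt and the hardly detected Adm. This was the case for 38.6% of all promoters and for 63.8% of those with at least 60% G and C, and the members' median G and C content was 67.0% beside 52.4% for all. A match in these letters is a description and not a binding site.

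IL-4 lowered Bnip3 in both genotypes, by 0.49 in WT (SE 0.08, edgeR adjusted p = 0.000236) and by 0.90 in KO (SE 0.08, edgeR adjusted p = 6.05e-07) on the log2 scale. P4ha1 was lowered in KO (log2 -0.42, SE 0.06, edgeR adjusted p = 6.88e-05) and had a value of 0.08 in WT (SE 0.06, edgeR adjusted p = 0.317). A direct test of the difference between the responses gave -0.50 for P4ha1 (SE 0.09, edgeR adjusted p = 0.00992), which was the only member among the 3.24% of all genes that passed (1.11% with a positive and 2.13% with a negative difference). For Bnip3 the difference was -0.41 (SE 0.11, edgeR adjusted p = 0.0669), and it passed when the mouse was entered as a replicate block (adjusted p = 0.0111), with DESeq2 (adjusted p = 0.0215), without WT M0 replicate 3 (adjusted p = 0.0229) and without WT mouse 3 (adjusted p = 0.0425). These responses share the M0 libraries with the genotype comparison, so that the higher M0 level in KO enters both.

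Ndrg1 (chromosome 15, 66929318 to 66969640, minus strand), a stress-inducible gene of the N-myc downstream regulated family, had 25.7, 29.1 and 28.5 CPM in KO M0 and 17.2, 19.2 and 21.8 CPM in KO M2, without overlap (log2 -0.51, SE 0.12, edgeR adjusted p = 0.00307). In WT the values were 19.4, 23.8 and 28.9 CPM in M0 and 19.4, 18.8 and 19.8 CPM in M2, where the M0 libraries varied widely (log2 -0.31, SE 0.13, edgeR adjusted p = 0.0598). Ndrg1 passed in WT as well with the mouse as a replicate block (adjusted p = 0.0252), with DESeq2 (adjusted p = 0.0465), with no filter on low counts (adjusted p = 0.0379) and without WT M0 replicate 1 (log2 -0.44, adjusted p = 0.00474).

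Ankrd37 (chromosome 8, 45996902 to 46005707, minus strand), which encodes an ankyrin repeat protein, was not called with IL-4 in either genotype. It had 3.36, 4.34 and 6.23 CPM in WT M0 and 4.95, 6.44 and 7.05 CPM in WT M2, and 6.02, 5.12 and 5.39 CPM in KO M0 and 7.01, 5.54 and 5.79 CPM in KO M2. All groups overlapped, with log2 differences for IL-4 of 0.41 in WT (SE 0.20, edgeR adjusted p = 0.116) and 0.15 in KO (SE 0.19, edgeR adjusted p = 0.559). The WT value passed with the mouse as a replicate block (log2 0.43, adjusted p = 0.00928), without M0 replicate 3 (log2 0.67, adjusted p = 0.00803) and without WT mouse 3 (log2 0.56, adjusted p = 0.0289). Ankrd37 overlaps Ufsp2 on the other strand, which had 55.2 to 68.7 CPM, and the strand setting of the counting was not given in the sources used here, so that reads of these 2 genes cannot be told apart with certainty.

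IL-4 changed 50% of all genes tested in WT (24.9% higher and 25.1% lower) and 52.8% in KO (26.8% higher and 26% lower), and 6 and 8 of the 9 members were called. M0 and M2 libraries did not overlap for 5 members in WT and 8 in KO, where 55.2% and 63.4% of all genes did not overlap. In WT 2 were higher (Epas1 and Arnt) and 4 lower (Hif1a, Egln1, Egln3 and Bnip3), and in KO the same 2 were higher and 6 lower, the additional genes being Ndrg1 and P4ha1. For Ndrg1 the difference between the responses was -0.21 and did not pass (SE 0.18, edgeR adjusted p = 0.586). With the mouse as a replicate block, Ndrg1 and Ankrd37 were also called in WT (edgeR adjusted p = 0.0252 and 0.00928). The median of the 9 log2 values was -0.24 in WT and -0.42 in KO, beside -0.008 and 0.014 for all genes. In the same M2 libraries the proliferation markers given above were lower, and Pecam1 and Zbtb46 higher, and their part in these changes was not tested.

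**Figure D3:**
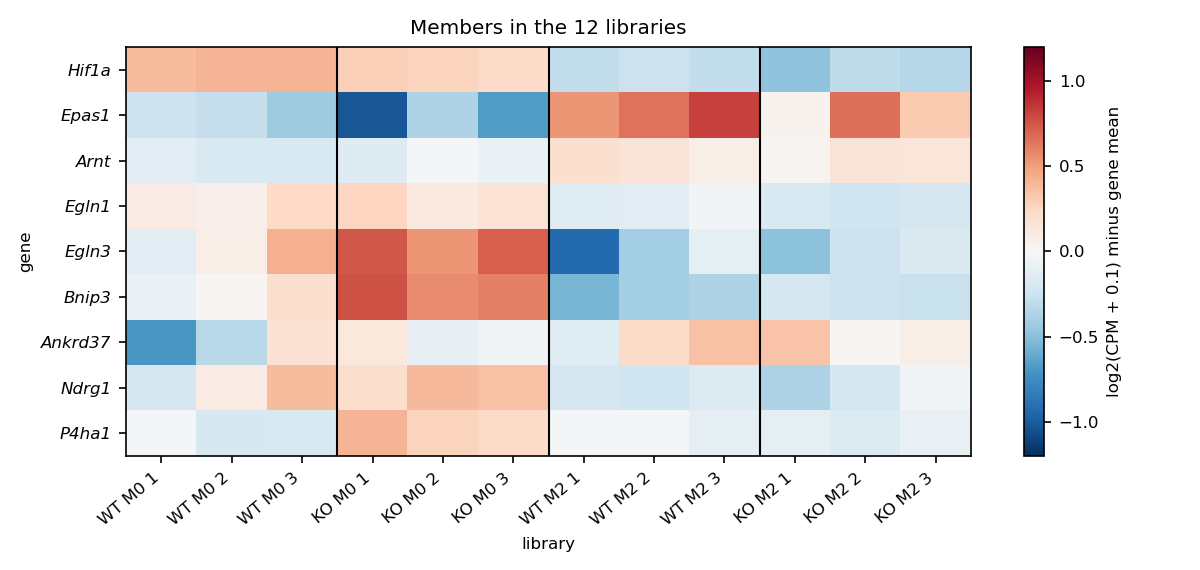
Heat map of log2(CPM + 0.1) of 9 members minus each gene's mean over the 12 libraries, with libraries as columns and vertical lines between the groups. Hif1a and Egln1 are red in M0 and blue in M2, Epas1 and Arnt tend the opposite way, and Bnip3 and Egln3 are reddest in KO M0.

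The rest of the pathway was examined with lists of related genes. Of the 13 tested other subunits, sensors and cofactors, 0 were called with edgeR between the genotypes in M0 and 0 in M2, where DESeq2 and the fits without WT M2 replicate 3 or without WT mouse 3 called 1 each. Their median log2 differences were 0.01 and -0.05. IL-4 raised Egln2, a further prolyl hydroxylase gene, by 0.25 in WT and 0.23 in KO (edgeR adjusted p = 0.00467 and 0.00663) and lowered Cited2, which competes with HIF alpha for the CBP and p300 coactivators, by a log2 change of -0.52 and -0.49 (edgeR adjusted p = 1.32e-05 and 1.75e-05). Arnt2, a paralog of Arnt, was called higher in WT (log2 1.31, SE 0.40, edgeR adjusted p = 0.0154), but not without WT mouse 3 (adjusted p = 0.101), WT M0 replicate 2 (adjusted p = 0.0647) or WT M2 replicate 3 (adjusted p = 0.0632). Its level was low, with means of 0.606 CPM in WT M0 and 1.52 CPM in WT M2. The Egln2 call in KO was lost with both limma fits (adjusted p = 0.0648 and 0.065). Hif1an, the asparaginyl hydroxylase gene, was called higher in WT (log2 0.21), a call that was lost with limma on log2(TPM + 1) (adjusted p = 0.0539) and log2(TPM + 0.1) (adjusted p = 0.0516). In KO, Vhl (log2 0.31) and Rbx1 (log2 0.18), a subunit gene of the VHL ubiquitin ligase, were called higher. The Rbx1 call was lost with no filter (adjusted p = 0.0502), with both limma fits (adjusted p = 0.151 and 0.153) and without KO M0 replicate 2 (adjusted p = 0.098), KO M0 replicate 3 (adjusted p = 0.0714) or KO M2 replicate 1 (adjusted p = 0.0991).

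Of 27 tested other targets outside glycolysis, 4 were called in M0 (14.8%, beside 9.78% of all genes). Plin2 (log2 0.33), a lipid droplet gene, and the histone demethylase gene Kdm3a (log2 0.17) were higher in KO, and the growth factor gene Pdgfb (log2 -0.47) was among those that were lower. The median of the 27 was -0.02. In M2, 4 were called as well (14.8%, beside 2.68% of all genes). Hmox1 (log2 -0.58), the heme oxygenase gene, and the transferrin receptor gene Tfrc (log2 -0.42) were among those lower in KO, and the lipid droplet gene Hilpda (log2 0.31) was higher. The stromal markers given above were also lower in KO. With both limma fits the count was 0 in both treatments. The M0 count was 0 without WT M0 replicate 2, KO M0 replicate 2 or KO M0 replicate 3, and 2 without WT M0 replicate 1 or KO M0 replicate 1. The M2 count was 0 without KO M2 replicate 3, 1 without WT M2 replicate 1, WT M2 replicate 2 or KO M2 replicate 2, and 2 with the 6 compared libraries or the replicate block. The Kdm3a call (edgeR adjusted p = 0.0498) was lost with no filter, with both limma fits, with the 6 compared libraries, with the block, without any 1 library of M0 other than WT M0 replicate 1, and without WT mouse 3 (adjusted p = 0.0806 to 0.265 over these fits).

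Of the glycolytic targets, 9 of 18 were called in M0, all higher in KO, beside 9.78% of all genes called and 5.5% called higher. Whether this count differs from those of the other lists was not tested. The median was 0.22, and the largest values belonged to the lactate exporter gene Slc16a3 (log2 0.66, SE 0.14, edgeR adjusted p = 0.0104), Aldoc (log2 0.39), Pfkl (log2 0.38) and Pgam1 (log2 0.30). In M2, 0 of 18 were called with edgeR, with a median of 0.11, and 3 with DESeq2. Their M0 count was 3 without WT M0 replicate 2 and 5 without KO M0 replicate 1 or 2 or with the replicate block, and the M2 count was 7 without WT mouse 3. In the order of their M0 differences, Bnip3 and P4ha1 lay within the range of the glycolytic genes, between -0.11 and 0.66. For the difference between the IL-4 responses, 0 genes of these related lists were called in the edgeR fit over all 12 libraries with filterByExpr and TMM. Other edgeR fits called 1 with RLE factors, 2 with the CPM filter, 5 with no filter, 9 with the mouse as a replicate block and 4 without WT mouse 3, and DESeq2 called 6.

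**Figure D4:**
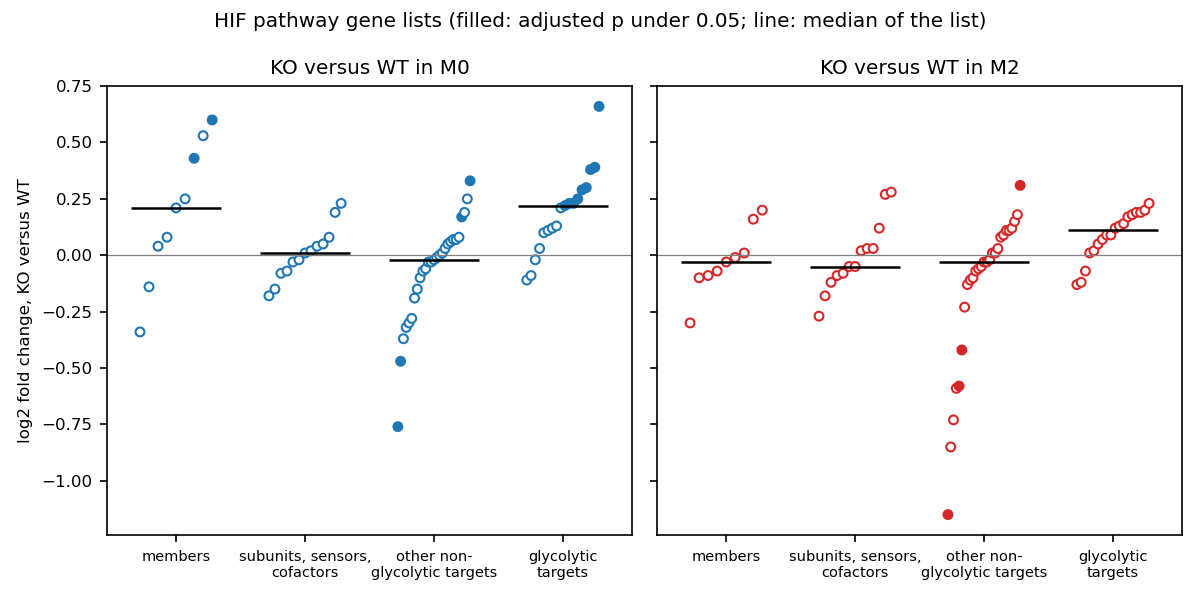
Log2 fold changes of KO versus WT in M0 (left) and M2 (right) for the members and the lists of related HIF pathway genes. Points are genes, filled at an adjusted p under 0.05, and lines are list medians. In M0 the medians are 0.21 for members and 0.22 for glycolytic targets, and in M2 -0.03 and 0.11.

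With IL-4, 16 of 27 other non-glycolytic targets were called in each genotype, 7 higher and 9 lower in WT and 6 higher and 10 lower in KO. The transcription factor gene Bhlhe40 rose by a log2 of 3.83 in WT and 3.73 in KO, and the carbonic anhydrase gene Car12 by 2.06 and 2.27. Car12 levels were low, with means of 0.403 CPM in WT M0, 1.7 CPM in WT M2, 0.392 CPM in KO M0 and 1.91 CPM in KO M2. Tfrc rose by 1.71 in WT and 1.56 in KO, and the chemokine receptor gene Cxcr4 fell by 1.65 and 1.92. Of the 18 glycolytic targets, 10 were called in WT (6 higher and 4 lower) and 12 in KO (4 higher and 8 lower). Those with the largest changes were Pfkfb4, higher by 1.54 and 1.51, Hk2 by 0.54 and 0.59, Pfkfb3 by 0.45 and 0.43, and Slc16a3, which was lower (log2 -0.97 and -1.45). The Pfkfb3 call in KO was lost with both limma fits (adjusted p = 0.0739 and 0.072). Of the 13 tested other subunits, sensors and cofactors, 4 were called with IL-4 in each genotype (30.8%), 3 higher and 1 lower. The member counts of 6 and 8 of 9 lay beside these shares and beside the 50% and 52.8% of all genes. Whether the counts of the lists differ was not tested.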

How the data were processed

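Poly(A) RNA of 12 libraries was sequenced as single reads with a directional kit. The tables that the authors deposited per library give expected counts (estimated reads per gene), TPM and gene lengths for 38887 genes on GRCm38. The study's methods name the Grape-nf pipeline, run with Nextflow, for the reads; the strand setting of the counting is not given in the sources used here. Per the labels, FastQC 0.11.2 and DESeq2 1.40.2 were used. The authors' comparison tables hold fold changes and p-values and served here only for gene symbols. Groups came from the labels. The members and gene lists were chosen with earlier results of these data known.

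Expected counts were rounded, filtered with filterByExpr, scaled by TMM and fitted over all 12 libraries with edgeR 4.0.16 (quasi-likelihood test, R 4.3.3), with Benjamini-Hochberg adjustment over 12846 genes and calls at an adjusted p under 0.05. CPM are TMM-scaled. With 3 libraries against 3, the smallest exact permutation p of a single gene is 0.1. Alternatives were DESeq2 1.42.0, RLE factors, other filters (none, or 1 CPM in 3 libraries), limma 3.58.1 on log2(TPM + 1) and log2(TPM + 0.1), the 6 compared libraries alone, a replicate block and leaving out each library. Leaving out WT mouse 3 was added after seeing the data. Libraries of the same number in M0 and M2 of a genotype deviated together (r = 0.103 to 0.364), so the number was taken as the mouse, while same-numbered libraries of different genotypes did not (r = -0.068 to 0.04). In simulated counts with 200 genes changed by a log2 of 1, edgeR recovered 83.5% (M0) and 80.0% (M2) for the genotype, 82.5% (WT) and 85.5% (KO) for IL-4, and 70.5% when the responses were compared. The members' genotype differences were smaller, -0.34 to 0.60 in M0 and -0.30 to 0.20 in M2. Changes of that size were not simulated, so these shares do not give the recovery for them.

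Named related genes are up to 4 called genes per list and comparison, by size of change, and 1 of them is not reported here. Coordinates are from GENCODE M21, and promoters from RefSeq.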

Additional observations from a re-analysis of the deposited data

Results flagged for a closer look

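The IL-4 response of P4ha1 differed between the genotypes by a log2 of -0.50 (KO minus WT, SE 0.09, adjusted p = 0.00992 in edgeR's test of the difference). P4ha1 had 112, 98.8 and 99.9 CPM in WT M0 and 111, 111 and 105 CPM in WT M2, against 150, 136 and 133 CPM in KO M0 and 105, 101 and 106 CPM in KO M2. The KO M0 libraries stood above all the others, and the M2 libraries of the genotypes overlapped.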

How the results depend on the processing

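Of the 711 recomputed member results, 673 kept their direction and their side of the threshold, 18 newly passed, 5 no longer passed and 15 changed sign, all of the last without a call. The cause of these moves was not tested. All-gene counts for KO versus WT in M0 (1256) were 752 and 700 with limma on log2(TPM + 1) and log2(TPM + 0.1), and 817 with the replicate block; in M2 (344) they were 713 with DESeq2, 70 and 57 with limma, 165 with 6 libraries, 84 with the block and 1098 without WT mouse 3; for the difference (416) they were 816 with DESeq2, 113 with both limma fits and 1003 with the mouse block. Member counts in M0 (2) were 4 with DESeq2 and 4 without WT mouse 3, and for the difference (1) 2 with DESeq2, the mouse block or without WT mouse 3. Related genes in M2 (4) gave 9 with DESeq2, 0 with limma, 2 with 6 libraries, 2 with the block and 13 without WT mouse 3, and for the difference (0) 1 with RLE, 6 with DESeq2, 5 with no filter, 2 with the CPM filter, 9 with the mouse block and 4 without WT mouse 3.

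Leaving out 1 library gave 461 to 1461 genes in M0, 25 to 298 in M2, 5606 to 6182 for IL-4 in WT, 6034 to 6367 in KO and 183 to 643 for the difference. Members called were 2 to 4, 0, 5 to 7, 8 and 1 to 2, and related genes 3 to 15, 0 to 7, 26 to 31, 28 to 32 and 0 to 3, in the same order. Signs changed for Ndrg1 in M2 with limma (-0.06 and -0.07) and without single libraries (range -0.09 to 0.08), for Arnt (up to 0.01) and Egln3 (-0.04 to 0.37) without single libraries, for Ankrd37 likewise (-0.15 to 0.10) and without WT mouse 3 (0.10), and for Epas1 in the difference with limma (-0.02) and without single libraries (-0.14 to 0.22). The library number does not pair WT with KO; the mouse block, which pairs M0 with M2, changed no member call beyond those given above (Ankrd37 and Ndrg1 in WT, and Bnip3 for the difference). Adm could not be tested at its counts.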

Other observations

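The genes whose pattern over the 12 libraries was most like that of a HIF subunit were ranked by the root mean square difference of log2 CPM, each centred on its own mean, among 9746 genes. For Hif1a these were Nab1 (0.036), Acvr1b (0.048), Ccdc50 (0.051), Camkk2 (0.051) and Tapt1 (0.054), beside a median of 0.373 over all genes compared. For Epas1 they were Appl1 (0.19), Zfp518b (0.203), Tacc2 (0.21), Tnk2 (0.211) and Igf1 (0.212), beside 0.576, and IL-4 raised Igf1, the gene of an insulin-like growth factor, by a log2 of 0.92 in WT and 0.80 in KO. For Arnt they were AU040320 (0.043), Copb2 (0.043), Kdm5c (0.046), Elp2 (0.048) and Map2k7 (0.048), beside 0.196. Libraries of a group share genotype and treatment, and these distances are descriptions.

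The libraries of WT mouse 3 were the highest of their group for 6 of 9 members in M0 and for 6 of 9 in M2, where all genes gave 40.6% and 38.1%. Among the 18 glycolytic targets, the libraries of WT mouse 3 were highest for 14 in M0 and for 11 in M2. KO M0 replicate 1 was also the highest of its group for 6 of 9 members, beside 35.6% of all genes, and for 8 of the 18 glycolytic targets. For the other 10 glycolytic targets KO M0 replicate 2 was the highest, beside 33.1% of all genes.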
